A study of Mus musculus with 6 samples.

Results

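The 10 genes described here are regulators of mitochondrial biogenesis that act with PGC-1α in muscle, namely Ppargc1a, Ppargc1b, Perm1, Esrra, Esrrg, Nrf1, Gabpa, Tfam, Ppara and Ppard. They were taken by gene symbol, for their known roles, out of the 45777 genes in the count table. All 10 were found and all 10 passed the filter on low counts, which kept 16188 genes for testing. RNA-seq was carried out on the tibialis anterior (TA), a fast-twitch muscle of the lower leg, from male C57BL/6J mice aged 24 months by the sample labels (the text of the study gives the age differently in places). Mice in the vehicle group (n = 3 libraries) received 5% DMSO with 5% Tween 80, and mice in the treated group (n = 3 libraries) received 5 mg/kg BML-260, a rhodanine-based inhibitor of the phosphatase DUSP22, in a daily intraperitoneal injection for 1 month. The sample labels name no transgene or gene deletion. The reagent list of the study gives its C57BL/6J mice an identifier that names the gene Gpr37, and this difference was not resolved. Both groups were aged, and no young or untreated animals were among the samples, so the comparison concerns BML-260 against its vehicle in old muscle only. Library totals ran from 39522890 to 56998875 counts.

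PGC-1α, the product of Ppargc1a, is a coactivator: it binds no DNA of its own and raises transcription by docking on transcription factors. Its main partners in muscle are the estrogen-related receptors (ERRα and ERRγ, from Esrra and Esrrg), the nuclear respiratory factors NRF1 and GABP, and the fatty acid-sensing receptors PPARα and PPARδ. NRF1 and GABP drive Tfam, whose product enters mitochondria, packages mitochondrial DNA and starts its transcription, so the set links an exercise or fasting signal in the nucleus to both mitochondrial and nuclear genes of respiration.

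The partners in this set also have recognition motifs, and these were searched for in the promoters of the members, because the proteins that bind them are themselves members. The RefSeq promoter table (GRCm38.p6) held 13 windows, each from 250 bases before to 50 after a start site, for 9 of the 10 genes. Exact matches on both strands were counted for the NRF1 motif GCGCANGCG, the extended ERR half-site TNAAGGTCA and the ETS core CCGGAAG, which GABPA recognises. One match per member is printed 5′ to 3′ on the strand of its gene, with the motif in capitals.
Tfam, ETS core: ctgccgcggaCCGGAAGtccgggcttc
Gabpa, ETS core as its reverse complement: agggtaagtgCTTCCGGgtccctcagc
Esrra, NRF1 motif: acaggaggccGCGCACGCGtgtgtatcga
Ppara, NRF1 motif: gggctcggtgGCGCATGCGcgcggactag
The stretch of Tfam lies at chr10:71238075-71238101 on the minus strand, with its motif 47 to 41 bases before the start site. That of Gabpa lies at chr16:84835021-84835047 on the plus strand, 93 to 87 bases before the start. In Esrra the motif stood 141 to 133 bases before the start (chr19:6921931-6921959, minus strand), and in Ppara it stood 31 to 23 bases before it (chr15:85735735-85735763, plus strand), where a second match on the other strand overlapped it by all but 1 base. Each start is that of a window and not the outermost start of its gene. All of these stretches lie within the gene bounds given below.

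The ETS core was held by 2 members, in 2 of the 13 member windows, and by 8.86% of the 32851 promoter windows of all genes. The NRF1 motif was held by 2 members, also in 2 of the 13 member windows, and by 6.25% of all windows. A looser NRF1 motif, GCGCNNGCG, was also held by 2 members, in 2 of the 13 member windows, against 12.1% of all windows. The ERR half-site was in no member window and in 1.28% of all windows. A match describes letters in a window and not an occupied site, and absence says only that the letters are not in these windows.

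None of the 10 regulators passed the test for a change with BML-260. A gene was called when its fold change was at least 1.3 with an unadjusted p below 0.05, and 0 of 10 members met this with edgeR's quasi-likelihood test. At an unadjusted p below 0.05 alone the number was also 0. DESeq2's Wald test gave 0 members at an adjusted p below 0.05 and 0 at an unadjusted p below 0.05. Across all 16188 genes tested the same rule called 931, or 5.75%, with 0.896% higher and 4.86% lower under BML-260, and after Benjamini-Hochberg adjustment 0% of genes passed 0.05. The log2 fold changes of the members, BML-260 over vehicle, ran from -0.35 (Nrf1) to 0.51 (Ppargc1b), 6 above and 4 below 0, with a median of 0.10 against -0.0039 for all genes, of which 49.5% were above 0. Only Nrf1 had libraries of both groups that did not overlap, which was also the case for 12.1% of all genes.

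**Figure D1:**
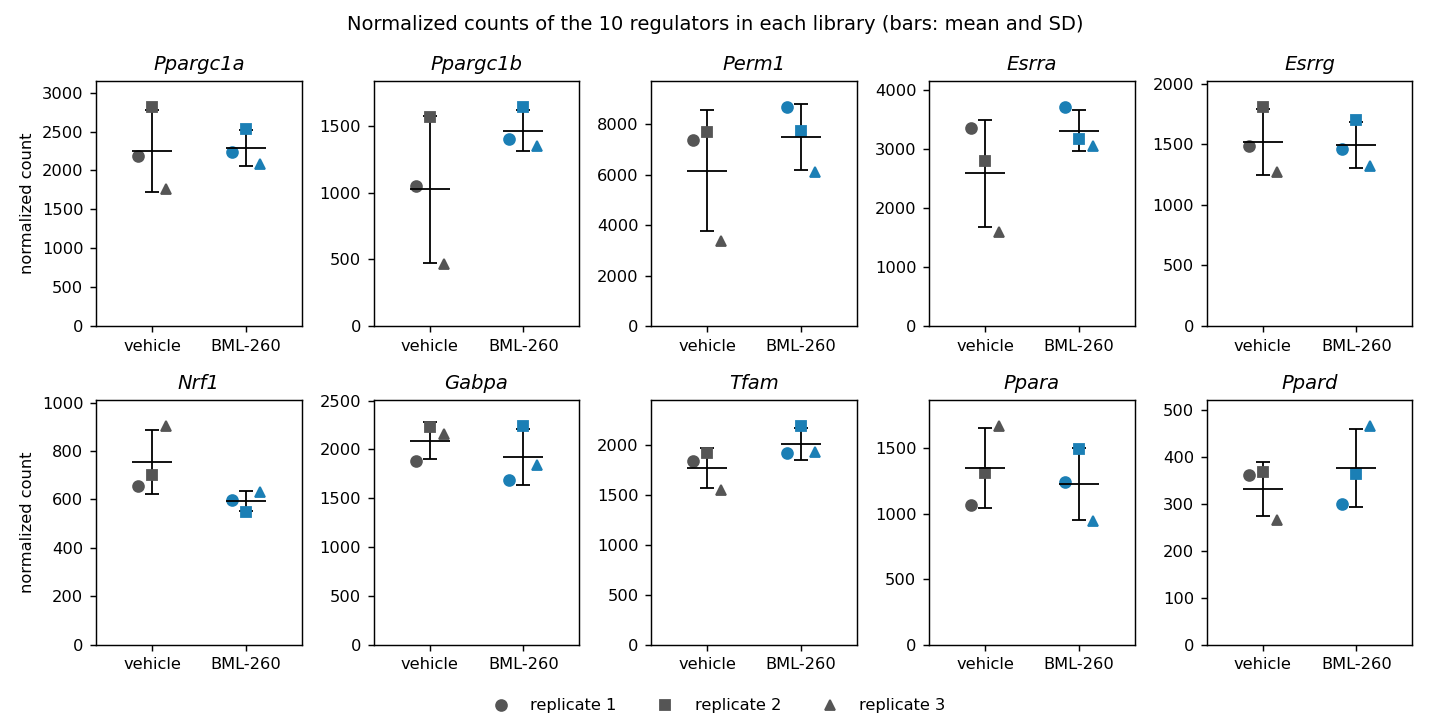
Normalized counts (vertical axes, each from 0) of the 10 regulators in the 3 vehicle (grey) and 3 BML-260 (blue) libraries; the symbol gives the replicate number, and bars give the mean and SD. Groups overlap for every gene but Nrf1, and vehicle replicate 3 (grey triangle) is the lowest library for 7 of the 10.

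One vehicle library stood apart from the others and bears on every value below. Vehicle replicate 3 had the lowest normalized count (the count divided by the size factor of its library) for 7 of 10 members and the highest for 2, while 31.1% of all genes tested were lowest and 32.3% highest in it. The median distance of the members from their own median over libraries was 0.42 on the log2 scale in this library and between 0.045 and 0.20 in the other 5. Its summed TPM (a level scaled for gene length and library size) of 9 slow fiber markers was 1164 against 99.3 to 208 elsewhere and of 8 macrophage markers 524 against 77.1 to 126. Of the 9 adipocyte markers, 7 were tested and 6 of these were highest in it, such as Adipoq, the gene of adiponectin, at 391 normalized counts against 40 to 61, while Fabp4, the most abundant, was not (6531 against 5610 to 7613) and the brown fat gene Ucp1 had 0 counts in every library. The fast fiber markers of the TA were abundant in every library, with a summed TPM of 99530 in this one and 106800 to 132100 in the others, but 9 of 10 had their lowest normalized count in it. Among them Pvalb, the calcium buffer of fast fibers, had 49149 normalized counts in it and 233445 to 363256 elsewhere. The part of these cells or fibers in the values of the regulators was not tested, and in whole muscle fewer cells of a type and less RNA per cell cannot be told apart. Log2 fold changes of the members and medians of the gene lists are therefore given with and without this library.

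Among the coactivators, Ppargc1a itself had nearly equal means in both groups. Its normalized counts were 2182, 2812 and 1757 in the vehicle libraries and 2239, 2538 and 2080 in the BML-260 libraries. The treated values all lay inside the vehicle range. The means were 2250 ± 531 and 2286 ± 233 (SD, n = 3 each), and edgeR gave a log2 fold change of 0.02 (SE 0.19; unadjusted p = 0.927, Benjamini-Hochberg adjusted p = 0.983). The 95% interval covered folds from 0.746 to 1.37, so changes within these limits were not excluded with 3 libraries a group. Without vehicle replicate 3 the log2 fold change was -0.13. The study reported by qPCR that BML-260 raised PGC-1α expression in aged mice, a difference that these counts did not detect. Ppargc1a (gene ID 19017) lies on chromosome 5 from 51454249 to 52115853 on the minus strand (GRCm38) and has 13 RefSeq transcripts, which the counts per gene do not separate.

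Ppargc1b, which encodes the related coactivator PGC-1β, had the highest point estimate and the widest spread of the set. Its normalized counts were 1048, 1567 and 462 with vehicle and 1405, 1642 and 1354 with BML-260. Vehicle replicate 3 held less than any other library, whereas vehicle replicate 2 was as high as the treated libraries. The log2 fold change was 0.51 (SE 0.37, 95% interval -0.34 to 1.36), which edgeR did not separate from 0 (unadjusted p = 0.202, Benjamini-Hochberg adjusted p = 0.788). It fell to 0.16 without vehicle replicate 3. Without vehicle replicate 2 it was 0.96 and met the call rule (edgeR, unadjusted p = 0.0228, Benjamini-Hochberg adjusted p = 0.632; adjusted p from 0.601 to 0.9999 over all alternatives), as did 7.22% of all genes tested in that fit. Among the vehicle libraries its SD of log2 CPM (counts scaled to library size) was 0.91, the largest of the 10 members, whose median was 0.30.

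Perm1, a muscle-specific regulator induced by PGC-1α and ERRs, was the most abundant member. Normalized counts were 7398, 7688 and 3392 with vehicle and 8677, 7728 and 6109 with BML-260. Vehicle replicate 3 was again the low library and the remaining 5 overlapped. The log2 fold change of 0.28 (SE 0.30; edgeR, unadjusted p = 0.385, Benjamini-Hochberg adjusted p = 0.826) became -0.01 when vehicle replicate 3 was left out. Perm1 (gene ID 74183, chromosome 4, 156203262 to 156221307, plus strand) overlaps AW011738 on the same strand, so reads from the shared stretch are uncertain.

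The estrogen-related receptors are the factors through which much of this program runs. Esrra, the receptor that joins PGC-1α at most genes of oxidative metabolism, had normalized counts of 3356, 2803 and 1597 with vehicle and 3707, 3172 and 3055 with BML-260. Its lowest library was vehicle replicate 3 and its highest was BML-260 replicate 1, with vehicle replicate 1 inside the treated range. The log2 fold change was 0.35 (SE 0.26, 95% interval -0.24 to 0.94; edgeR, unadjusted p = 0.207, Benjamini-Hochberg adjusted p = 0.788), and 0.10 without vehicle replicate 3. Esrrg, which is typical of oxidative fibers and heart, had 1484, 1806 and 1269 with vehicle and 1458, 1701 and 1323 with BML-260. Every treated library lay within the vehicle range, with a log2 fold change of -0.03 (SE 0.17; edgeR, unadjusted p = 0.875, Benjamini-Hochberg adjusted p = 0.973) that was -0.14 without vehicle replicate 3.

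Esrra (gene ID 26379) lies on chromosome 19 from 6910977 to 6922048 on the minus strand and overlaps Trmt112, on the other strand, by 52 bases. Esrrg (gene ID 26381) spans 187608510 to 188214885 on the plus strand of chromosome 1, with 15 RefSeq transcripts.

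Nrf1, which encodes nuclear respiratory factor 1, an activator of respiratory chain genes, was the member closest to a call and the only one whose groups separated. Normalized counts were 656, 701 and 905 with vehicle and 598, 550 and 631 with BML-260. All vehicle libraries were above all treated libraries, but the gap between vehicle replicate 1 and BML-260 replicate 3 was small beside the distance of vehicle replicate 3 from the other vehicle libraries. The means were 754 ± 132 and 593 ± 40.5 (SD, n = 3 each), a fold of 0.785 with a 95% interval from 0.608 to 1.01. On the log2 scale this was -0.35 (SE 0.16; edgeR, unadjusted p = 0.0614, Benjamini-Hochberg adjusted p = 0.788). It was -0.20 without vehicle replicate 3, and -0.44 without vehicle replicate 1, where it met the call rule (edgeR, unadjusted p = 0.0344, Benjamini-Hochberg adjusted p = 0.338; adjusted p from 0.338 to 0.9999 over all alternatives), as did 13.3% of all genes tested in that fit.

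Gabpa, the DNA-binding subunit of GABP (also called NRF-2), had normalized counts of 1878, 2231 and 2163 with vehicle and 1684, 2243 and 1840 with BML-260. The groups overlapped, with BML-260 replicate 2 the highest of all. Its log2 fold change was -0.12 (SE 0.15; edgeR, unadjusted p = 0.445, Benjamini-Hochberg adjusted p = 0.841), and -0.10 without vehicle replicate 3. Gabpa (gene ID 14390, chromosome 16, 84834891 to 84863783, plus strand) overlaps Atp5j, on the other strand, by 967 bases. Atp5j averaged 7510 normalized counts, and since the strand setting of the counting is not given, reads of this stretch cannot be assigned with certainty. Nrf1 (gene ID 18181) lies on chromosome 6 from 30047985 to 30153458 on the plus strand. No overlapping gene was found for it among those above a low limit of mean count, and genes below that limit were not listed.

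Tfam had normalized counts of 1842, 1926 and 1546 with vehicle and 1919, 2195 and 1927 with BML-260. BML-260 replicate 2 was the highest library, while vehicle replicate 2 stood between BML-260 replicates 1 and 3. Its log2 fold change was 0.18 (SE 0.15; edgeR, unadjusted p = 0.245, Benjamini-Hochberg adjusted p = 0.796), with a 95% interval from -0.15 to 0.51. Leaving out vehicle replicate 3 gave 0.09. Tfam (gene ID 21780) lies on chromosome 10 from 71225468 to 71238328 on the minus strand.

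The fatty acid receptors were among the lower members in TPM. Ppara, which drives fatty acid oxidation genes, had normalized counts of 1063, 1309 and 1670 with vehicle and 1240, 1493 and 946 with BML-260. Vehicle replicate 3 was the highest library and BML-260 replicate 3 the lowest, and the others were mixed between the groups. The log2 fold change was -0.14 (SE 0.22; edgeR, unadjusted p = 0.538, Benjamini-Hochberg adjusted p = 0.870), and 0.04 without vehicle replicate 3.

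Ppard, the PPAR most closely tied to endurance muscle, had the fewest counts of the set. The values were 361, 368 and 265 with vehicle and 301, 363 and 467 with BML-260. Vehicle replicate 3 was the lowest library and BML-260 replicate 3 the highest, with the rest mixed. Its log2 fold change was 0.18 (SE 0.22; edgeR, unadjusted p = 0.433, Benjamini-Hochberg adjusted p = 0.839), and 0.04 without vehicle replicate 3. Ppara (gene ID 19013) lies on chromosome 15 from 85734910 to 85806851 and Ppard (gene ID 19015) on chromosome 17 from 28232754 to 28301469, both on the plus strand.

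The 95% fold intervals of the members differed in width with their spread. Ppargc1b had the widest, from 0.793 to 2.57, followed by Perm1, from 0.749 to 1.97, and Esrra, from 0.849 to 1.92. Tfam (0.901 to 1.43), Gabpa (0.718 to 1.17) and Esrrg (0.744 to 1.29) were narrower, and the receptors Ppara (0.645 to 1.28) and Ppard (0.7995 to 1.61) lay between. All of them include a fold of 1, and all but that of Nrf1 and those of Gabpa, Esrrg and Ppara also include an increase of 1.3 times.

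**Figure D2:**
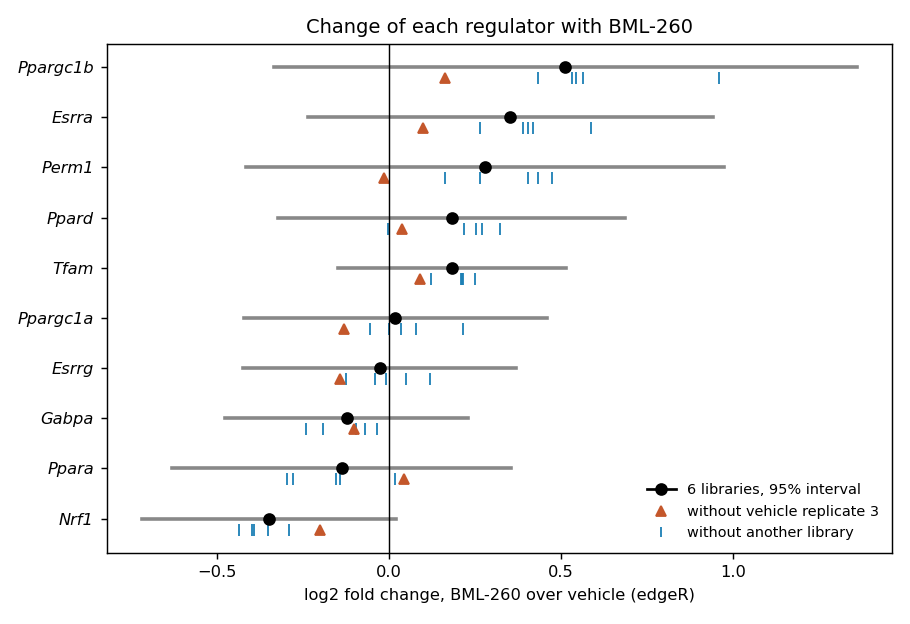
Log2 fold change of each regulator (horizontal axis, BML-260 over vehicle, edgeR), ordered by size. Black points and grey bars give the estimate and 95% interval over 6 libraries, red triangles the estimate without vehicle replicate 3 and blue ticks the estimate without each of the others; all 10 intervals include 0, and for Perm1, Esrra and Ppargc1b the triangle lies well below the point, at -0.01, 0.10 and 0.16.

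The spread was wider among vehicle than among treated libraries. The SD of log2 CPM was larger in the vehicle group for 7 of 10 members, as it was for 70.5% of all genes tested. The median SD of the members was 0.30 with vehicle and 0.16 with BML-260, and that of all genes 0.32 and 0.19. The coefficient of variation of the normalized count of Ppargc1b was 53.9% with vehicle and 10.5% with BML-260, and that of Esrra 34.8% and 10.5%. Ppard and Gabpa went the other way, at 17.5% and 22.3% for Ppard and 8.97% and 15.0% for Gabpa.

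The picture in vehicle replicate 3 depended on the scale. In TPM it was the lowest library for 3 members (Ppargc1b, Perm1 and Esrra) and the highest for 4 (Esrrg, Nrf1, Gabpa and Ppara). This library had 0.45 more on the log2 scale in TPM for a given normalized count than the gene's median over libraries, over all genes, against -0.15 to 0.02 in the others. Ppargc1b, Perm1 and Esrra were thus low in it on both scales, and Nrf1 and Ppara high on both, while the low normalized counts of Ppargc1a, Esrrg, Tfam and Ppard in it were not low in TPM.

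**Figure D3:**
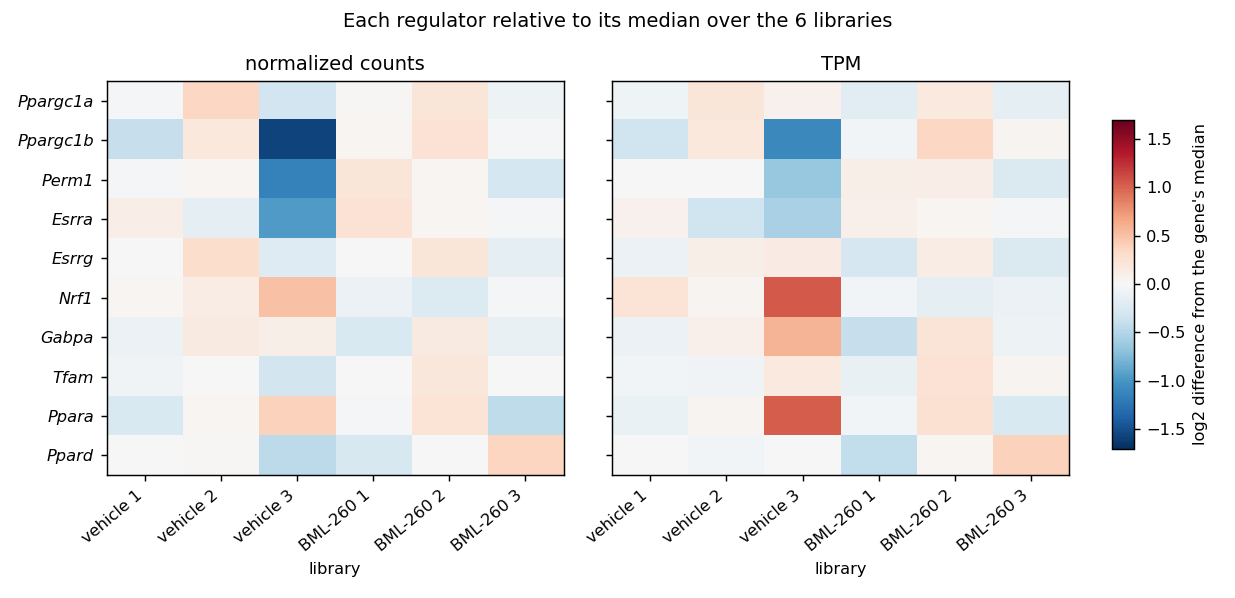
Log2 difference of each regulator (rows) from its own median over the 6 libraries (columns), in normalized counts (left) and TPM (right); blue is below and red above the median. In the column of vehicle replicate 3, Ppargc1b, Perm1 and Esrra are below and Nrf1 and Ppara above their medians on both scales, and Ppargc1b there is the darkest cell of each panel.

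Levels of the different regulators were compared in TPM, which corrects for length. In the vehicle group Perm1 was the highest at 59.5 ± 14.1 TPM (SD, n = 3), followed by Esrra at 42.4 ± 9.46, Tfam at 17.5 ± 1.57, Gabpa at 16.6 ± 4.20, Ppargc1a at 13.4 ± 1.32, Esrrg at 10.99 ± 0.983, Nrf1 at 8.76 ± 3.42, Ppara at 8.35 ± 3.84, Ppard at 3.95 ± 0.0815 and Ppargc1b at 3.58 ± 1.49. Neighbours in this order did not overlap between Esrra and Tfam, between Ppargc1a and Esrrg and between Ppara and Ppard, and the other neighbours overlapped over the 3 libraries. Ppargc1a was above Ppargc1b in all 6 libraries, by 2.46 to 6.39 times in TPM.

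With BML-260 the same genes led. Perm1 stood at 67.4 ± 8.88 TPM, Esrra at 51.3 ± 2.04, Tfam at 17.97 ± 2.295, Gabpa at 13.7 ± 2.87, Ppargc1a at 12.3 ± 1.71 and Esrrg at 9.75 ± 1.601 (SD, n = 3 each). Below them came Ppara at 6.25 ± 1.17, Nrf1 at 5.79 ± 0.217, Ppargc1b at 4.93 ± 0.746 and Ppard at 4.11 ± 1.124 TPM, each overlapping the next. The lower 4 members thus stood in another order than with vehicle, among neighbours whose ranges overlapped. The breaks with no overlap were Perm1 to Esrra, Esrra to Tfam and Esrrg to Ppara.

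**Figure D4:**
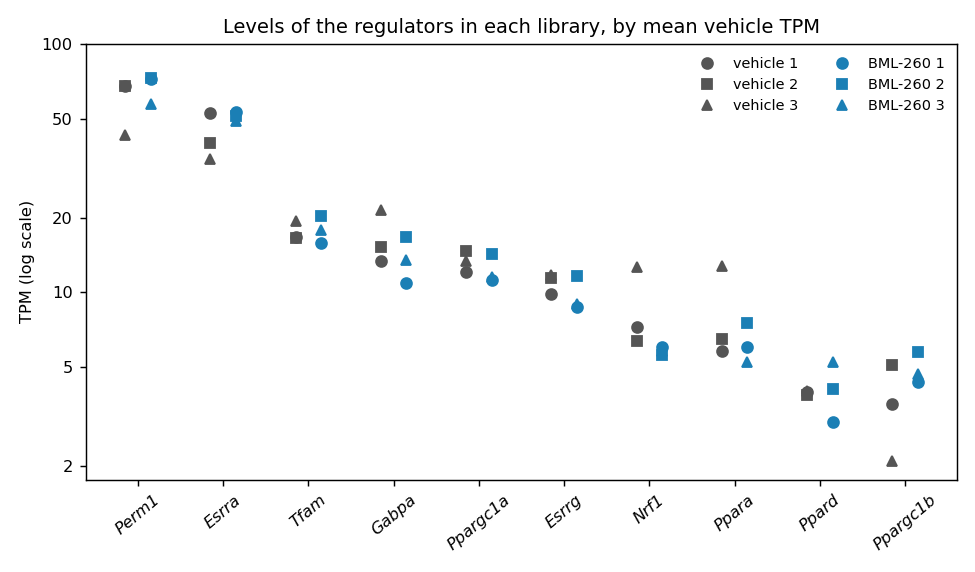
TPM of each regulator (vertical axis, log scale) in the vehicle (grey) and BML-260 (blue) libraries, ordered by the mean vehicle level; the symbol gives the replicate number. Perm1 and Esrra lie above 30 TPM in all 6 libraries, and Ppard and Ppargc1b lie at 2.097 to 5.766 TPM.

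The profile of Ppargc1a over the 6 libraries was most like those of Zfp442, Atg4c, Wnk1, Acadl and Etfa, the 5 genes with the smallest root mean square difference in gene-centred log2 CPM. Those differences were 0.0158, 0.0325, 0.0432, 0.0439 and 0.0450, against a median of 0.302 over 11639 other genes. Among the members Esrrg came nearest at 0.0616, with 19 genes closer, followed by Tfam at 0.138, with 456 closer. Ppargc1b was far from it at 0.460, with 9471 genes closer. Likeness over 6 libraries is a description, and these libraries share depth and composition.

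The genes around the 10 regulators were taken from lists of known pathway members. The partners and corepressors (18 genes, among them the retinoid X receptors, the GABP β subunits and the NCoR corepressors) had 13 positive and 5 negative log2 fold changes with a median of 0.11 (0.09 without vehicle replicate 3), and 0 were called. Rxra, the obligate partner of the PPARs, had a log2 fold change of 0.37 (SE 0.21), as did Kat2a, an acetyltransferase of PGC-1α, at 0.37 (SE 0.23). The smallest p among the negative values belonged to Gabpb2, a subunit that pairs with GABPA, at -0.17 (SE 0.14), and to Pparg, the adipocyte PPAR, at -0.32 (SE 0.27). Gabpb2 did not overlap between the groups, with 988, 962 and 1089 normalized counts with vehicle and 952, 812 and 952 with BML-260.

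Of 22 upstream kinases and activators, which signal to PGC-1α, 17 were positive, the median was 0.14 (0.11 without vehicle replicate 3) and 1 was called. Prkab2, the β2 regulatory subunit of AMP-activated protein kinase and the main β subunit of muscle, had 13316, 8555 and 5393 normalized counts with vehicle and 15585, 15777 and 13578 with BML-260. The lowest treated library was just above the highest vehicle library, and the vehicle libraries were widely spaced. This gave a log2 fold change of 0.72 (SE 0.30; edgeR, unadjusted p = 0.0431, Benjamini-Hochberg adjusted p = 0.788), with adjusted p from 0.25 to 0.9999 over the alternatives. It was 0.45 and still called without vehicle replicate 3, where 3.98% of all genes tested were called, and was not called without vehicle replicate 2 (0.68) or any 1 of the BML-260 libraries (0.68 to 0.78).

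Ppp3cb, a catalytic subunit of the calcium-activated phosphatase calcineurin, had 8590, 8301 and 6967 normalized counts with vehicle and 9765, 11261 and 9458 with BML-260. Its groups did not overlap, but the log2 fold change of 0.35 (SE 0.16) was not called (edgeR, unadjusted p = 0.0590, Benjamini-Hochberg adjusted p = 0.788). Prkab1, the other β subunit, had a log2 fold change of -0.18 (SE 0.20). Camk4 was close to the detection limit, with 0 to 26 normalized counts.

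The machinery that copies and transcribes mitochondrial DNA, in which TFAM works, comprised 15 tested genes besides Tfam itself. Of these 12 were positive and 3 negative, the median was 0.08 (-0.02 without vehicle replicate 3), and 0 were called. Polg, the catalytic subunit of the mitochondrial DNA polymerase, had 1402, 1267 and 1421 normalized counts with vehicle and 1511, 1573 and 1608 with BML-260, with no overlap but a log2 fold change of only 0.20 (SE 0.13). Mterf1a, a transcription termination factor of few reads, went from 60, 57 and 47 to 39, 35 and 35, also with no overlap (log2 fold change -0.59, SE 0.31; edgeR, unadjusted p = 0.0891, Benjamini-Hochberg adjusted p = 0.788). Mgme1, an exonuclease of mitochondrial DNA replication, stood at 0.41 (SE 0.23) and Mterf3 at -0.12 (SE 0.16).

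Known targets of PGC-1 and the ERRs, mostly enzymes of the citric acid cycle and subunits of the respiratory chain, gave 24 positive values of 25 with a median of 0.26, but 24 of the 25 also had their lowest normalized count in vehicle replicate 3. Without that library the median was 0.0023 and 13 of 25 were positive. Their summed TPM was 13910 in vehicle replicate 3 and 18710 to 20790 in the other 5 libraries, which overlapped between the groups. The 1 called gene was Kyat1, a kynurenine aminotransferase induced by PGC-1α, with 654, 579 and 322 normalized counts with vehicle and 827, 783 and 813 with BML-260. These groups did not overlap, and vehicle replicate 3 was the lowest library. This gave a log2 fold change of 0.64 (SE 0.25; edgeR, unadjusted p = 0.0320, Benjamini-Hochberg adjusted p = 0.788), with adjusted p from 0.283 to 0.984 over the alternatives. It was 0.38 and still called without vehicle replicate 3, and was not called when any 1 BML-260 library was left out (0.62 to 0.67). Sod2, the mitochondrial superoxide dismutase, had 0.36 (SE 0.28), and the 1 negative value was that of Cox6a2, a muscle form of a cytochrome oxidase subunit, at -0.04 (SE 0.15).

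The PPAR targets of fatty acid handling were mixed, with 13 of 20 positive, a median of 0.10 and 0 called. Without vehicle replicate 3 the median was -0.07 and 9 were positive. Cpt1b, which admits long-chain fatty acids to mitochondria, had 10821, 11129 and 7569 normalized counts with vehicle and 11333, 12018 and 11857 with BML-260, a log2 fold change of 0.25 (SE 0.19) with no overlap. Fabp3, the fatty acid-binding protein of muscle, had 0.44 (SE 0.33). Lpl, which releases fatty acids from lipoproteins, had -0.47 (SE 0.24) with its highest count in vehicle replicate 3, and Acot1, an acyl-CoA thioesterase, had -0.53 (SE 0.29).

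The 13 protein genes of mitochondrial DNA, the far end of this pathway, all had their lowest normalized count in vehicle replicate 3. Their summed TPM was 53760 there and 81770 to 101100 in the other 5 libraries. Over all 6 libraries 7 were positive and 6 negative, with a median of 0.05 and 0 called. Without vehicle replicate 3 all 13 were negative with a median of -0.29, and 1 was called, ND4L at -0.71 (edgeR, unadjusted p = 0.0382, Benjamini-Hochberg adjusted p = 0.9999; adjusted p from 0.735 to 0.9999 over its alternatives). ND4L had 296, 651 and 116 normalized counts with vehicle and 335, 325 and 207 with BML-260. Vehicle replicate 2 was thus its highest library, and vehicle replicate 1 lay within the treated range. Without vehicle replicate 2 the log2 fold change of ND4L was 0.49. Most of the 13 genes were highest in vehicle replicate 2, and the rest in BML-260 replicate 1, so the negative values depend on which vehicle library is left out. COX3, the most abundant gene of those named in this group, had 754141, 725605 and 276722 normalized counts with vehicle and 834384, 628030 and 599018 with BML-260. The treated libraries overlapped the first and second vehicle libraries, and the log2 fold change was 0.22 (SE 0.42). ND3 had 0.29 (SE 0.37) and ND5 -0.19 (SE 0.43). Gene lists here were not tested as sets.

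**Figure D5:**
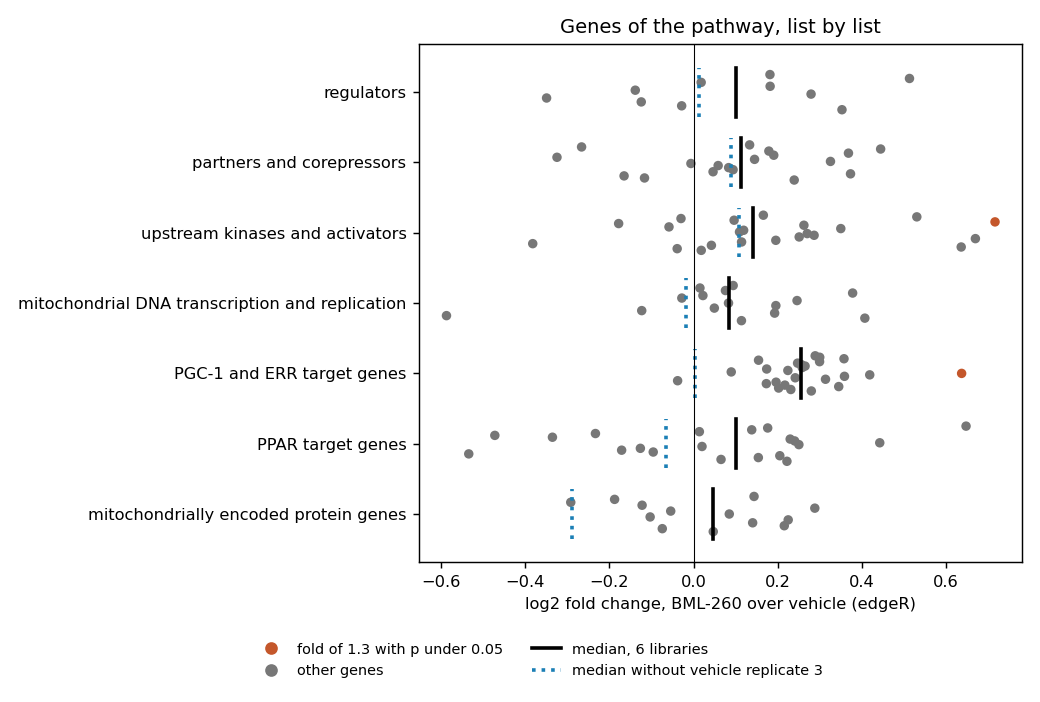
Log2 fold change (horizontal axis, BML-260 over vehicle, edgeR) of each tested gene of 7 lists; red points passed a fold of 1.3 with an unadjusted p below 0.05, black lines are list medians over 6 libraries and dotted blue lines the medians without vehicle replicate 3. The 2 red points are Prkab2 and Kyat1, and the median of the PGC-1 and ERR targets goes from 0.26 to 0.0023 when vehicle replicate 3 is left out.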

How the data were processed

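RNA was extracted with TRIzol and libraries were made with a stranded total RNA kit. Per the submitters' processing notes, the authors trimmed reads with Trimmomatic 0.38, aligned them to mm10 with HISAT2 2.1.0 and Bowtie2 2.3.4.1, and assembled transcripts with StringTie 2.1.3b. They deposited raw read counts per gene and TPM values per gene for each library; the counting strand is not given in the sources used here. TPM and counts were joined by gene ID. Gene positions and transcripts were taken from the RefSeq table of GRCm38.p6, which held 45679 of the 45777 IDs.

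Counts were tested with edgeR 4.0.16 (R 4.3.3; filterByExpr, TMM, quasi-likelihood F test, no block), with Benjamini-Hochberg adjustment over 16188 genes; the code was tested on simulated data. Normalized counts used DESeq2 1.42.0 size factors. TPM served for levels between genes, for levels of markers and gene lists in each library, and beside counts for library patterns and ratios. It was tested only in the alternatives. Alternatives used DESeq2, apeglm 1.24.0 and limma 3.58.1 on counts or on log2(TPM + 1) and log2(TPM + 0.1); other normalizations and filters, a replicate block and leaving out each library were also run. Figures were drawn with matplotlib 3.10.9. Named genes were the 10 members, per pathway list up to 2 genes of smallest p in each direction plus any called gene, and the 5 genes most like Ppargc1a (mean CPM of at least 1). The members and lists were chosen with earlier results of these data known, and no list was tested as a set. Nothing in the labels says more of the replicates than their numbers; the study calls them biological.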

Additional observations from a re-analysis of the deposited data

How the results depend on the processing

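No member was called over all 6 libraries, and leaving out 1 library gave 0 to 1 calls, namely Nrf1 without vehicle replicate 1, where 13.3% of all genes tested were called, and Ppargc1b without vehicle replicate 2, where 7.22% were; every other alternative gave 0. The signs of Ppargc1b, Esrra, Nrf1, Gabpa and Tfam held in 16 of 16 unshrunken alternatives, whereas Ppargc1a changed sign in 6, Esrrg and Ppara in 2 each, and Perm1 and Ppard in 1 each. The members' median ran from 0.01 to 0.23 when 1 library was left out, and was -0.02 with limma voom, -0.05 with limma on log2(TPM + 1) and -0.05 with a pseudocount of 0.1, where the median of all genes was also lower, at -0.089 and -0.14. With apeglm no member exceeded 8.35e-06. The list of mitochondrial DNA transcription and replication had a median of 0.08 that became -0.019 without vehicle replicate 3; the cause was not tested. Libraries of the same replicate number had only weakly correlated deviations from their group means (0.136, 0.0514 and 0.1). Whether the numbers pair the samples cannot be told from these values or from the labels. With the replicate block, 0 members and 1057 genes were called against 931, and the members' median was 0.11. Calls over all genes were 2223 without vehicle replicate 1, 1207 without vehicle replicate 2, 503 without BML-260 replicate 2, 1416 with no filter, 446 with limma on log2(TPM + 1) and 99 with apeglm. DESeq2 gave 82 genes at an adjusted p below 0.05, of which 0 were members. Prkab2 and Kyat1 kept their calls in 12 and 13 of 17 alternatives. With 3 libraries a group, the upper limits of the members' 95% fold intervals ran from 1.01 (Nrf1) to 2.57 (Ppargc1b).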

Other observations

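Ratios between members were also formed within each library, where depth cancels. Of 45 ratios, 5 did not overlap between the groups in normalized counts and 6 in TPM, and 5 did so on both scales. Taken singly, 12.1% of all 16188 genes tested did not overlap in normalized counts. No such share was formed for ratios of other genes, so these numbers are not a result about the members. The ratio of Ppargc1a to Ppargc1b was 2.08, 1.80 and 3.81 with vehicle and 1.59, 1.55 and 1.54 with BML-260 in normalized counts, so every treated library was lower than every vehicle library. In TPM it was 3.40, 2.89 and 6.39 against 2.57, 2.47 and 2.46. The treated libraries lay close together and the vehicle libraries did not, with vehicle replicate 3 the highest on both scales. The ratio of Nrf1 to Tfam in normalized counts was 0.356, 0.364 and 0.585 with vehicle and 0.312, 0.251 and 0.327 with BML-260, again lower in every treated library. The ratio of Esrrg to Tfam was 0.806, 0.937 and 0.821 against 0.760, 0.775 and 0.687, and here vehicle replicate 3 lay between the other vehicle libraries. The other ratios that separated on both scales were those of Ppargc1b to Esrrg and to Gabpa. These ratios were singled out after their values were seen, they share members, and none was tested.

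Macrophage markers, which were set beside the regulators as a sign of other cells, were lower with BML-260 for 7 of 8 genes at the same threshold, with a median log2 fold change of -1.34. Without vehicle replicate 3, which was the highest library for all 8, the median was -0.59 and 6 were called lower. Of all genes tested, 4.86% were called lower and 0.896% higher over all 6 libraries. When vehicle replicate 3 was left out, 3.98% were called in either direction. The 9 slow fiber markers had a median of -1.28 with 3 called lower (Atp2a2, Tnni1 and Myoz2), and without vehicle replicate 3 a median of 0.69 with 5 called higher and 1 lower. Of the 7 adipocyte markers tested, Cfd and Retn were called lower over all 6 libraries and 0 of the 7 without vehicle replicate 3. Of the 6 fibroblast markers 1 (Col1a1) was called lower, and without vehicle replicate 3 there was 1 called higher and 1 lower. Of the 6 endothelial markers and the 10 fast fiber markers 0 were called. Myh2, the myosin of oxidative fast fibers, had 1207 TPM in vehicle replicate 3 and 265.6 to 505 in the other 5 libraries.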
